A study of Homo sapiens with 8 samples.

Results

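Prostaglandins are short-range lipid signals made from arachidonic acid that is cut out of membrane phospholipid. The 10 genes described here encode steps from that release to the reading and removal of prostaglandin E2, and the synthase of prostacyclin, another prostaglandin. Their signals were followed in BT549 cells, an established line from a human triple-negative breast tumour. The genes are PLA2G4A, PTGS1, PTGS2, PTGES, PTGES2, PTGIS, PTGER2, PTGER4, SLCO2A1 and HPGD, taken by gene symbol as 10 of the 18417 genes tested on the arrays. Each of the 10 was read by exactly 1 probe set, and no other gene symbol was attached to it. The set was put together with earlier results of these arrays known, the difference in PTGES among them. The differences of its members between the conditions are therefore a description, given without p-values. Which members pass the threshold defined below is likewise a description and not a test.

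Of the 8 arrays, 4 carry RNA from BT549 cells in forced suspension for 24 h, on a poly-HEMA coating that keeps cells from adhering, and 4 carry RNA from cells attached to ordinary culture plates. Both conditions shared the medium, RPMI with 10% fetal bovine serum and insulin, and the series calls the 4 samples of a condition biological replicates. The labels give the attached cultures as 24 h in one field and as 48 h in another, so culture time and attachment cannot be told apart if the longer time holds. All RNA came from a single cell line, and in bulk RNA fewer expressing cells and less RNA per cell cannot be told apart.

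In this pathway the phospholipase PLA2G4A frees arachidonic acid, and the cyclo-oxygenases PTGS1 and PTGS2 turn it into prostaglandin H2, the shared precursor. PTGS1 is known as the steadily expressed enzyme and PTGS2 as the one induced by growth factors, cytokines and stress. Terminal synthases then decide the product: PTGES, the inducible membrane enzyme often coupled to PTGS2, and PTGES2 make prostaglandin E2, whereas PTGIS makes prostacyclin. Prostaglandin E2 acts through G protein-coupled receptors, of which PTGER2 (EP2) and PTGER4 (EP4) raise cyclic AMP. SLCO2A1 carries it back into cells, where HPGD oxidises and inactivates it. In breast tumours the pathway is known above all through PTGS2 and the prostaglandin E2 it helps to make.

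RefSeq promoter sequences of build GRCh38.p14 were matched by symbol for 8 of the 10 genes, in 12 windows. The 250 bases before the annotated start are printed for PTGES, PTGS2 and PLA2G4A, the 3 genes with the higher signals described below for which a window was matched. PTGES lies at chr9:129753043-129753292 on the minus strand, PTGS2 at chr1:186680424-186680673 on the minus strand and PLA2G4A at chr1:186828699-186828948 on the plus strand. Each runs 5′ to 3′ towards the start, and capitals mark matches to any of 5 motifs on either strand.
PTGES: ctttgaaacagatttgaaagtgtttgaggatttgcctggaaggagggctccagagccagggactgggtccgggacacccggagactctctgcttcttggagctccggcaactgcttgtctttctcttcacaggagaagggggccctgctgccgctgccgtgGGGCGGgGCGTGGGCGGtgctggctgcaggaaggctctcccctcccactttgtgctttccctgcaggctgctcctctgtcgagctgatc
PTGS2: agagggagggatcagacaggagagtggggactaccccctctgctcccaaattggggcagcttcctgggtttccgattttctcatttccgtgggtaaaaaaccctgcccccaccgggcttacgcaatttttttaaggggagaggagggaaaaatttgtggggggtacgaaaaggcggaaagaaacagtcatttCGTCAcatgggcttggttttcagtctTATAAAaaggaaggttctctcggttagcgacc
PLA2G4A: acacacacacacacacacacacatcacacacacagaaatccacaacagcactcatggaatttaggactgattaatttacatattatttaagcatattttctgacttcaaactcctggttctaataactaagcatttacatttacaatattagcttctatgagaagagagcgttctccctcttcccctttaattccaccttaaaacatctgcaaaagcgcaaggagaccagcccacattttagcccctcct

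The motifs searched were the GC box GGGCGG, the TATA box TATAAA, the core TGACG of the cyclic AMP response element, the AP-1 site TGANTCA and the core GCGTG of the aryl hydrocarbon receptor element. PTGES holds 2 GC boxes, at bases 89 to 84 and 78 to 73 before the start, with a GCGTG core at 82 to 78 that shares a base with the nearer box. GC boxes stand in 42.6% and GCGTG cores in 32.2% of the 35116 RefSeq windows of this length. PTGS2 holds a TATA box at bases 32 to 27, found in 10.7% of all windows, and a TGACG core on the opposite strand at 58 to 54, found in 21.2%. In the PLA2G4A window none of the 5 motifs was matched, which says only that those letters are not in those bases. AP-1 sites, present in 6.57% of all windows, were matched in none of the 12 windows. The GC content was 61.2% for PTGES, 50.4% for PTGS2 and 38.8% for PLA2G4A, against a median of 58% over all windows. For comparison, the first window of PTGES2 and the window of PTGER4, genes not past the threshold in the comparison, held 4 GC boxes each.

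Signals are log2 values as deposited. Array medians lay between 6.02 and 6.07, and arrays correlated over all probe sets at r = 0.993 to 0.996 within suspended, 0.995 to 0.996 within attached and 0.987 to 0.994 between the conditions. The number of arrays, 4 against 4, limits the precision. Without a background measure a fold is a ratio of signals, not of transcript amounts. Levels of different genes are compared only roughly, by percentiles of gene means and by signals summed over a list. Neither gives relative transcript amounts. A gene is said to pass the threshold at a Benjamini-Hochberg adjusted p under 0.05 over all 18417 genes by limma, a linear model with variances shared across genes, and differences are suspended minus attached.

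The labelled cell type was set against its markers. VIM, the mesenchymal filament vimentin, averaged 11.66 in suspended and 11.73 in attached cells, one of 5 mesenchymal markers measured. Of these 5, SNAI2 and ZEB1, both transcription factors, rose by 1.23 and 0.27 log2 units in suspended cells, the receptor kinase AXL fell by 1.04, and VIM and FN1 were not called. In a summed signal the brightest genes weigh most, so it need not follow most genes of a list. For this list it spanned 13.02 to 13.06 on the log2 scale in suspended cells and 12.83 to 12.87 in attached cells. The part of these differences in the results below was not tested. Of the 3 receptors that define triple-negative cells, ESR1, the estrogen receptor, averaged 5.11 in suspended and 5.04 in attached cells, and PGR, the progesterone receptor, 4.31 and 4.19, both under the 25th percentile of all gene means (5.28). ERBB2, the HER2 receptor, lay above that percentile at 7.53 in suspended and 7.48 in attached cells. None of the 3 was called different by limma at an adjusted or an unadjusted p under 0.05, and without a detection call these levels do not settle whether a receptor is present. The endothelial markers PECAM1, CDH5 and VWF were checked because endothelium is a known source of prostacyclin. None of these 3 passed the threshold (0 also at unadjusted p under 0.05, limma), and the log2 of their summed signal was 6.61 to 6.78 in suspended and 6.61 to 6.70 in attached samples. Of 4 leukocyte markers CD14 alone passed, higher by 0.22 (limma adjusted p = 0.0467), with PTPRC, the pan-leukocyte antigen, at 3.94 in both conditions. The log2 summed signal of the 4 was 6.96 to 7.20 in suspended and 6.99 to 7.06 in attached samples. Of 6 luminal epithelial markers GATA3 (0.49) and FOXA1 (0.18, limma adjusted p = 0.0458) rose, beside 10.4% called higher over all genes. EPCAM (−0.12), KRT8 (−0.05), KRT18 (−0.03) and CDH1 (0.07) did not pass. The log2 summed signal of the 6 was 9.75 to 9.84 in suspended and 9.57 to 9.63 in attached samples. Of the 3 adipocyte markers ADIPOQ, PLIN1 and LEP none passed, but 2 were higher at an unadjusted p under 0.05 (limma). Their median difference was 0.14, and the log2 summed signal was 7.18 to 7.26 in suspended and 6.97 to 7.17 in attached samples. The part of these marker differences in the results below was not tested.

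Along the synthesis branch the signals of PLA2G4A, PTGS2, PTGES and PTGIS were higher in suspended cells, whereas those of PTGS1 and PTGES2 overlapped between the conditions. The signals of both receptors, the uptake carrier and the breakdown enzyme overlapped too. PTGES stood apart, at 2.73 times its attached signal. PLA2G4A, PTGS2, PTGES and PTGIS, 4 of the 10 genes, passed the threshold, all upwards. They are also the 4 whose suspended and attached values did not overlap. Over all 18417 genes, 10.4% were called higher and 10.2% lower, and 12.7% had every suspended value above every attached value. Since the set was chosen with this contrast known, nothing is read from the 40% of members beside that background. No member was called lower. The median difference of the 10 genes was 0.10, beside 0.02 over all genes, and 8 of the 10 differences were above 0, beside 10582 of 18417.

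**Figure D1:**
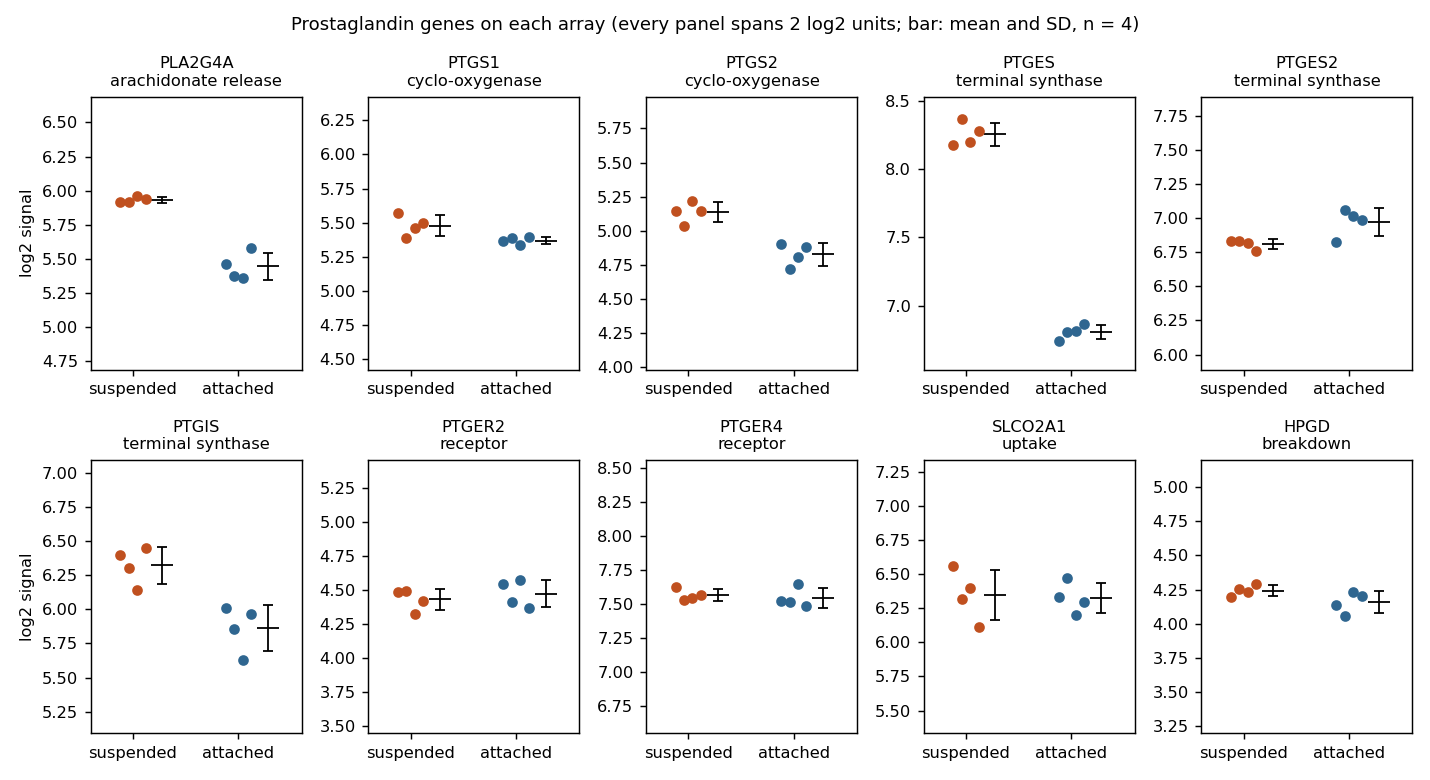
Log2 signal of each gene on each array (y axis, every panel spanning 2 log2 units), suspended samples on the left and attached samples on the right, with mean and SD (n = 4) beside the points. PTGES is at 8.18 to 8.37 in suspended and 6.74 to 6.87 in attached samples, whereas the points of PTGS1, PTGES2, PTGER2, PTGER4, SLCO2A1 and HPGD overlap between the conditions.

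PLA2G4A, the cytosolic phospholipase that starts the pathway, read 5.92, 5.91, 5.96 and 5.94 in suspended replicates 1 to 4. In attached replicates 1 to 4 it read 5.46, 5.38, 5.36 and 5.58. All suspended values lay above all attached ones, by at least 0.33, and the suspended replicates were tightly grouped (SD 0.022, the smallest of any member in either condition). The difference was 0.49 (SE 0.055, n = 4 per group), a signal ratio of 1.40, and ranked 293rd from the top of all genes. The mean of PLA2G4A over all arrays, 5.69, stood at percentile 34.0 of gene means, so the size of this ratio is also uncertain.

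Of the cyclo-oxygenases, PTGS2 passed the threshold and PTGS1 did not. PTGS2, the inducible enzyme, had log2 signals of 5.15, 5.04, 5.22 and 5.15 in suspended replicates 1 to 4, and 4.91, 4.72, 4.81 and 4.88 in attached replicates 1 to 4. The groups were separated by 0.13, and the difference was 0.31 (SE 0.057), a signal ratio of 1.24. Its mean over all arrays, 4.98, lies below the 25th percentile of gene means, so the size of this ratio is less certain than for brighter genes. PTGS1, the steadily expressed enzyme, had 5.57, 5.39, 5.46 and 5.50 in suspended and 5.36, 5.38, 5.33 and 5.39 in attached replicates 1 to 4. Suspended replicate 2 fell inside the attached range, and the difference of 0.11 (SE 0.050) did not pass the threshold. Whether the 2 enzymes differ in their response was not tested.

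Among the terminal synthases PTGES carried the widest separation. It had log2 signals of 8.18, 8.37, 8.20 and 8.28 in suspended replicates 1 to 4, and 6.74, 6.81, 6.81 and 6.87 in attached replicates 1 to 4. The lowest suspended value lay 1.31 above the highest attached one, and the SDs were 0.085 suspended and 0.051 attached. The difference of 1.45 (SE 0.054) was the 8th highest of all genes, and PTGES was the only member among the 63 genes that differed by at least 1 in either direction.

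PTGES2, the other prostaglandin E synthase, went the other way by a small step. Its signals were 6.83, 6.83, 6.82 and 6.76 in suspended replicates 1 to 4, and 6.83, 7.06, 7.01 and 6.98 in attached replicates 1 to 4. Attached replicate 1 sat among the suspended values while the other 3 attached values were above them. The difference of −0.16 (SE 0.056) missed the threshold, and without attached replicate 1 it was −0.21 and passed. It passed also when low-signal genes were left out of the test (−0.16) and when arrays were centred on the median of the tested genes (−0.21).

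PTGIS, the prostacyclin synthase, had log2 signals of 6.40, 6.30, 6.14 and 6.45 in suspended replicates 1 to 4, and 6.01, 5.86, 5.63 and 5.96 in attached replicates 1 to 4. The groups did not overlap, with a gap of 0.13, although both were widely spread (SD 0.13 suspended and 0.17 attached). The difference was 0.46 (SE 0.089), a signal ratio of 1.37.

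**Figure D2:**
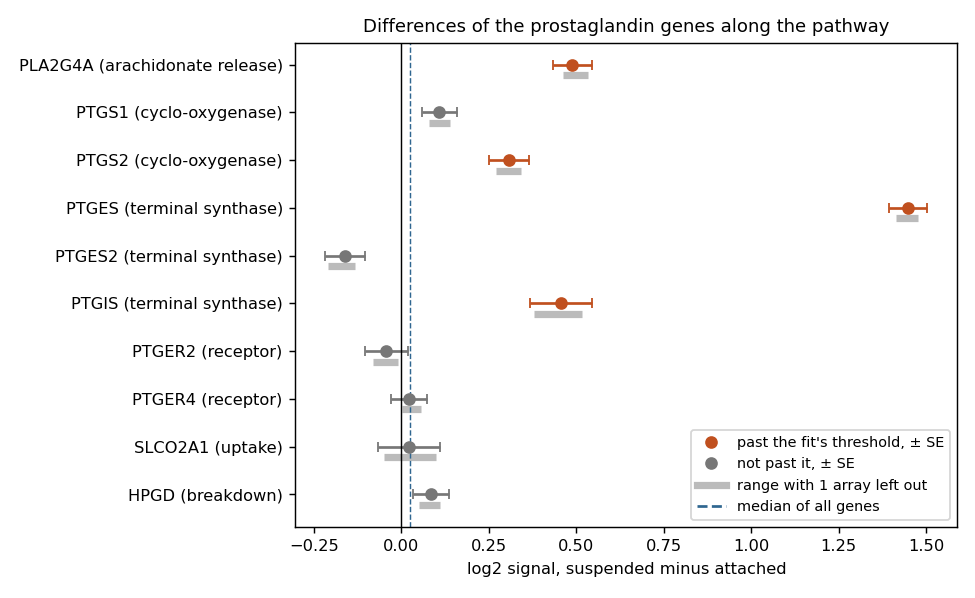
Difference of each gene in log2 signal, suspended minus attached (x axis), with SE, in pathway order from arachidonate release at the top to breakdown at the bottom. Grey bars give the range when 1 array is left out: PLA2G4A, PTGS2, PTGES and PTGIS stay at 0.27 or more, and the dashed line marks the median of all genes, 0.02.

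The signals of both prostaglandin E2 receptors among the members overlapped between the conditions. PTGER4 (EP4) read 7.63, 7.53, 7.55 and 7.57 in suspended and 7.53, 7.51, 7.65 and 7.49 in attached replicates 1 to 4. The highest single value was thus an attached one, and the difference was 0.02 (SE 0.050). PTGER2 (EP2) read 4.49, 4.49, 4.33 and 4.42 in suspended and 4.54, 4.41, 4.58 and 4.36 in attached replicates 1 to 4, with a difference of −0.04 (SE 0.062). Its mean, 4.45, lies below the 25th percentile of gene means, so a small change could be missed there.

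The genes for uptake and breakdown did not pass the threshold either. SLCO2A1, the prostaglandin transporter, had log2 signals of 6.56, 6.32, 6.39 and 6.11 in suspended and 6.33, 6.47, 6.20 and 6.30 in attached replicates 1 to 4. Its suspended samples were the most spread of any member (SD 0.19), and both the highest and the lowest of its 8 values were suspended ones. The difference was 0.02 (SE 0.089). HPGD, the dehydrogenase that inactivates prostaglandin E2, had 4.19, 4.25, 4.23 and 4.29 in suspended and 4.14, 4.055, 4.235 and 4.201 in attached replicates 1 to 4. The ranges overlapped, the difference was 0.08 (SE 0.052), and HPGD is, with PTGS2 and PTGER2, 1 of the 3 members under the 25th percentile of gene means.

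**Figure D3:**
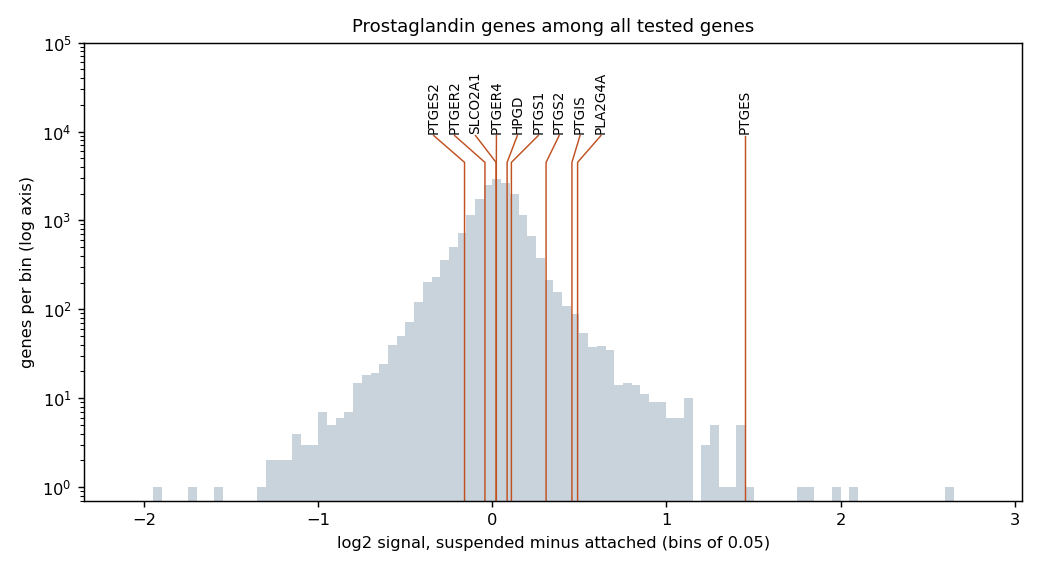
Number of genes (y axis, log scale) by difference in log2 signal, suspended minus attached (x axis, bins of 0.05), over all 18417 genes, with a line for each prostaglandin gene. PTGES, at 1.45, stands in the sparse upper tail, PLA2G4A, PTGIS and PTGS2 lie at 0.31 to 0.49 on the right flank, and the other 6 lie between −0.16 and 0.11.

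The rest of the pathway was taken as 6 lists by role, 74 measured genes of 81 listed, and 9 rose while 7 fell (limma, adjusted over all genes). That is 21.6% of the 74, beside 20.6% called in either direction over all genes, so with both directions pooled they were called about as often as other genes. At an unadjusted p under 0.05 (limma), 22 of the 74 were higher and 7 lower, beside 3234 higher and 2746 lower of all 18417. Their median difference was 0.04, beside 0.02 over all genes. The lists were drawn up by role, but with earlier results of these arrays known. Their shares and p-values, here and below, are therefore a description.

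Among 16 measured genes that release arachidonate, make it or load it into phospholipid, 2 rose and 1 fell. FADS2, a desaturase on the route to arachidonic acid, rose by 0.45 (SE 0.043, limma adjusted p = 2.28e-05). MBOAT7, which attaches arachidonate to phosphatidylinositol, rose by 0.20 (SE 0.050), and ACSL4, which activates arachidonate with coenzyme A, fell by 0.29 (SE 0.050, limma adjusted p = 0.00154). None of the phospholipases in the list passed, the secreted PLA2G2A, PLA2G5 and PLA2G10 and the calcium-independent PLA2G6 among them, with differences of −0.08 to 0.20. The list median was 0.07.

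Of 7 other prostanoid synthases measured, PTGES3 alone passed, and it fell. This cytosolic prostaglandin E synthase, also known as the HSP90 co-chaperone p23, read 9.95, 10.01, 9.98 and 9.67 in suspended and 10.25, 10.07, 10.20 and 10.11 in attached replicates 1 to 4. Suspended replicate 4 was the lowest, and the groups did not overlap. The difference was −0.25 (SE 0.077, limma adjusted p = 0.0377), a call lost without suspended replicate 1 or 4 or attached replicate 1, 3 or 4 (−0.29 to −0.18 over the 8 refits, limma adjusted p 0.0302 to 0.103). PTGES3 has near-identical processed pseudogenes, which its probes may also read. The synthases of the other prostanoids did not pass: PTGDS differed by 0.06 and HPGDS by −0.10 (prostaglandin D2), TBXAS1 by 0.03 (thromboxane), PRXL2B by 0.00 and AKR1C3 by 0.22 (prostaglandin F2), and the carbonyl reductase CBR1 by 0.05. AKR1C3 is close in sequence to other AKR1C genes, so its signal is uncertain.

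The prostanoid receptors outside the 10 genes were also without a called difference. PTGER1 (EP1) differed by 0.05, PTGER3 (EP3) by −0.03, the prostacyclin receptor PTGIR by 0.02 and the prostaglandin F receptor PTGFR by 0.06. The thromboxane receptor TBXA2R (0.13) and the prostaglandin D2 receptors PTGDR (0.11) and PTGDR2 (0.11) had the larger differences, with limma adjusted p of 0.124 or more. The gene of this list that rose was PTGFRN, which encodes a membrane protein that binds PTGFR and is no prostanoid receptor itself. It read 6.53, 6.49, 6.55 and 6.53 in suspended and 6.29, 6.31, 6.30 and 6.28 in attached replicates 1 to 4, 0.23 higher (SE 0.042, limma adjusted p = 0.00202), with no overlap.

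Transport and breakdown genes outside the 10 moved in both directions: of 7 measured, 2 rose and 3 fell. Over all genes 10.4% were called higher and 10.2% lower. ABCC4, an efflux pump that exports prostaglandin E2, read 7.85, 7.88, 7.95 and 8.08 in suspended and 8.21, 8.23, 8.17 and 8.18 in attached replicates 1 to 4. Every suspended value was below every attached one, and it fell by 0.26 (SE 0.055, limma adjusted p = 0.00608). SLCO4A1 (−0.31) and SLCO3A1 (−0.22), organic anion carriers of the same family as SLCO2A1, fell too. PTGR3, a prostaglandin reductase, rose by 0.22 and the carbonyl reductase CBR3 by 0.23, whereas the reductases PTGR1 (−0.07) and PTGR2 (−0.09) did not pass.

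In the lipoxygenase and leukotriene branch, the competing use of arachidonic acid, 0 of 14 measured genes passed (1 at unadjusted p under 0.05, limma), and the list median was 0.00. ALOX5, which starts leukotriene synthesis, differed by 0.02 and LTA4H, which makes leukotriene B4, by 0.01.

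Downstream of EP2 and EP4, among 22 measured genes of cyclic AMP signalling, 4 rose and 2 fell, beside 10.4% called higher and 10.2% lower over all genes. At an unadjusted p under 0.05 (limma), 11 were higher and 2 lower. The list median was 0.13, beside 0.02 over all genes. The orphan nuclear receptor NR4A2, a known cyclic AMP-induced gene, read 6.79, 7.01, 7.06 and 6.80 in suspended and 5.79, 5.85, 6.050 and 5.996 in attached replicates 1 to 4. It rose by 0.99 (SE 0.078, limma adjusted p = 5.51e-06), without overlap. Its relative NR4A3 rose by 0.62 (SE 0.086, limma adjusted p = 0.000364) and the clock gene PER1 by 0.30 (SE 0.075), while NR4A1, of the same family, differed by 0.08 and CREM by 0.04 without passing. These genes also answer signals other than prostaglandin receptors.

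Among the signalling components, the adenylyl cyclase ADCY3 fell by 0.34 (SE 0.059, limma adjusted p = 0.00165) and the transcription factor gene CREB1 by 0.18 (limma adjusted p = 0.0241), and GNAS, the stimulatory G protein subunit, rose by 0.15 (limma adjusted p = 0.0394). The CREB1 call was lost without suspended replicate 1 or 4 or attached replicate 1, 3 or 4 (−0.21 to −0.16 over the 8 refits, limma adjusted p 0.0147 to 0.0773). The GNAS call was kept only without suspended replicate 4 (0.13 to 0.16 over the 8 refits, limma adjusted p 0.0430 to 0.0995).

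**Figure D4:**
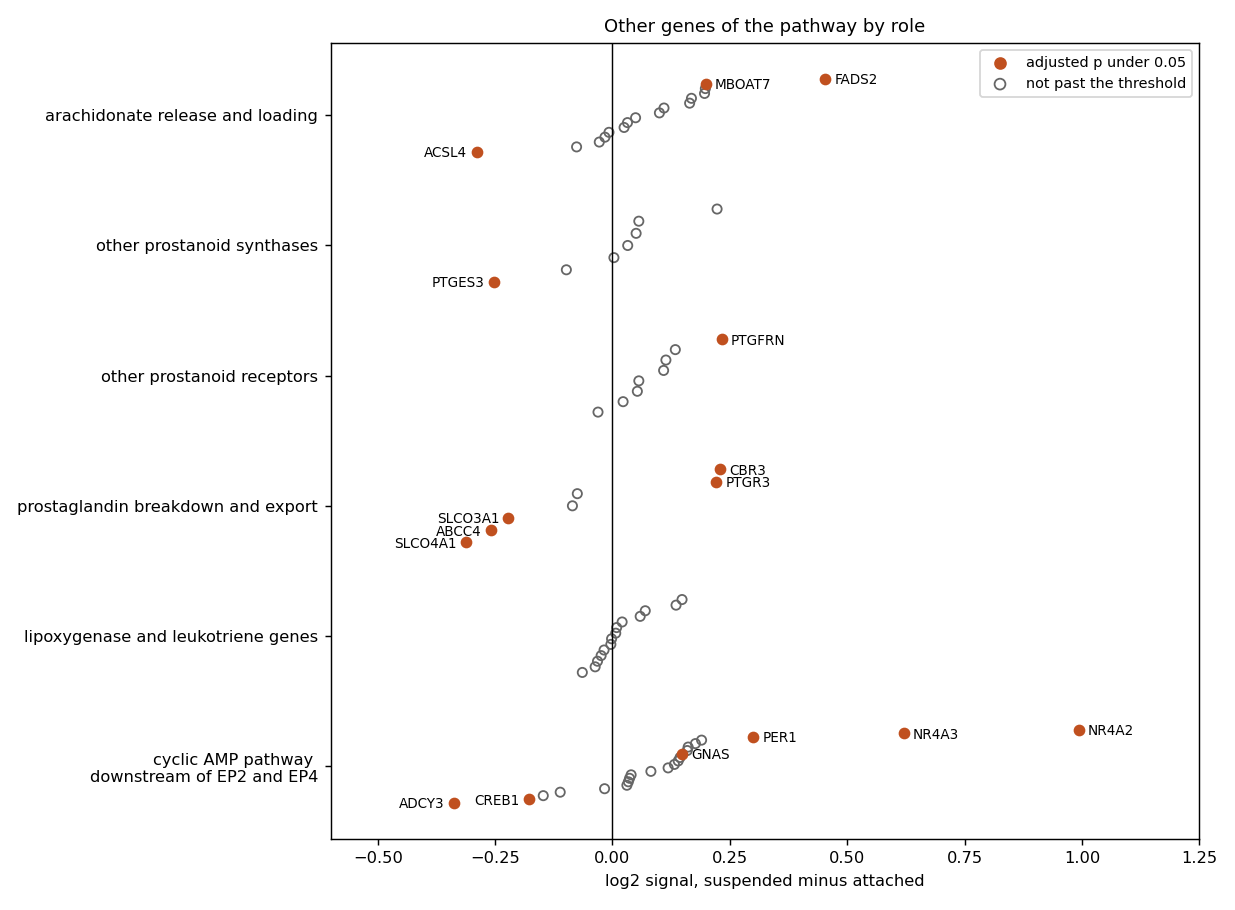
Difference in log2 signal, suspended minus attached (x axis), of the 74 other pathway genes grouped by role, 1 point per gene, with filled and named points for those past the threshold. NR4A2 (0.99) and NR4A3 (0.62) lie farthest to the right, and the open points of the lipoxygenase and leukotriene genes lie close to 0.

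By position, PTGS2 and PLA2G4A are each other's neighbours among measured genes on chromosome 1, while PTGS1, PTGES2 and PTGES share chromosome 9 without being adjacent. Of the 18 other measured genes that flank a member in RefSeq order, 1 rose and 2 fell (limma, adjusted over all genes). Over all genes 10.4% were called higher and 10.2% lower, so nothing is read from these calls. The rise was PRRX2, a homeobox gene next to PTGES, which averaged 7.55 ± 0.12 in suspended and 7.15 ± 0.13 in attached samples (SD, n = 4 each), 0.40 higher (SE 0.075, limma adjusted p = 0.00263). TOR1B, on the other side of PTGES, differed by 0.03. The falls were DAB2, an endocytic adaptor next to PTGER4 (−0.61, SE 0.052), and the small nucleolar RNA gene SNORD12C next to PTGIS (−0.67, SE 0.089). PTGES2-DT, the divergent transcript that starts beside PTGES2, differed by −0.08 and did not pass.

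The genes whose centred profiles over the 8 arrays lay closest to that of PTGES were STC1, KYNU, CYP1B1, DOCK11 and GEM, by root mean square distance in log2 units. STC1, a secreted glycoprotein hormone, was nearest at 0.030, with 10.65 ± 0.06 in suspended and 9.21 ± 0.07 in attached samples (mean log2 ± SD, n = 4 each). The kynureninase KYNU and the monooxygenase CYP1B1 followed at 0.065 each, then the exchange factor DOCK11 at 0.097 and the small GTP-binding protein GEM at 0.10. Genes were ranked by this distance alone, so their differences of 1.26 to 1.48 are a consequence of the ranking.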

How the data were processed

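Total RNA of 8 BT549 cultures, 4 suspended and 4 attached, was measured on gene-level expression arrays. The labels' protocol names a FlashTag biotin kit, a product made for small RNA, so how the RNA on these arrays was labelled is uncertain. The authors deposited 1 table of log2 signals, 33297 probe sets by 8 arrays. That the scale is log2 was inferred from the values, which reach 13.69 to 13.74 on every array. Partek is named in the submitters' processing notes. How signals were corrected for background, normalized and summarised, and the Partek version, are not stated in the sources used here. No detection call was used.

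Gene names came from the annotation of the platform: 19460 had 1 symbol, 1754 several and 12083 none. The brightest probe set stood for a gene with several, which left 18417 genes, and 0 symbols needed an update against RefSeq GRCh38.p14. The 2 conditions were fitted by limma 3.58.1 under R 4.3.3, using lmFit and then eBayes with a two-sided test and no covariates, and Benjamini-Hochberg adjustment over all 18417 genes and a threshold of 0.05. The fit was tested on simulated data. Plots used Python 3.11.15 and matplotlib 3.10.9.

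The members and lists were chosen with earlier results of these data known. By rule, the text names every member, every called gene of the 6 pathway lists, every measured prostanoid receptor and synthase and the 5 profiles nearest to PTGES, and could name any gene of the marker lists. The uncalled genes of the other lists that are named, and the neighbours, were picked after their values were seen. Of the listed pathway genes, PLA2G4B, PLA2G12A, AKR1B1, LTC4S, LTB4R, LTB4R2 and SIK1 are not analysed here. Motifs were matched by exact letters in RefSeq windows cut to the 250 bases before the start. Alternatives were a further quantile normalization, centring, a filter on low signal, an intensity trend, array weights, a replicate block, the mean of a gene's probe sets and leaving out each array.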

Additional observations from a re-analysis of the deposited data

Results flagged for a closer look

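In 9 of 88 gene groups (44 genes, each in both conditions) 1 array stood apart from the other 3 by Dixon's criterion, which flags about 1 group in 20 by chance. None of these was a group of the 10 prostaglandin genes. FADS2 was 10.57 on suspended replicate 1 (other suspended 10.63 at both ends of their range), and PTGR3 was 8.05 on the same array (others 8.18 to 8.19). SLCO3A1 was 7.96 on suspended replicate 3 (others 7.87 to 7.88), and TBXAS1 was 5.61 on suspended replicate 4 (others 5.48 to 5.49). PTGDS was 5.59 on attached replicate 4 (others 5.53 to 5.54), and TBXA2R was 6.68 on attached replicate 1 (others 6.78 to 6.79). On attached replicate 2, PTGFR was 5.39 (others 5.61 to 5.62), PTGDR2 was 7.24 (others 7.04 to 7.06) and CYP1B1 was 6.99 (others 6.88). Of these genes, FADS2, PTGR3, SLCO3A1 and CYP1B1 passed the threshold in the comparison, and each passed also without the array named.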

How the results depend on the processing

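Across all genes, 1910 were called higher and 1877 lower in suspension. With 1 array left out in turn the counts were 1439 to 1971 higher and 1456 to 1781 lower. Centring arrays on the median of the tested genes, an alternative chosen after seeing the data, gave 1340 higher and 2472 lower, so that 35.2% of calls were higher in place of 50.4%. Of the prostaglandin genes, 4 were called higher with any single array left out and under the other alternatives, except that the filter on low signal removed PTGS2 from the test and left 3. The count called lower was 0, and 0 to 1 with 1 array left out. It was 1 with the filter on low signal and 1 with centring on the tested genes, in each case PTGES2. The difference of SLCO2A1 ran from −0.05 to 0.10 with 1 array left out, and those of SLCO2A1 and PTGER4 were −0.03 and −0.02 with centring on the tested genes, without being called. The other pathway genes gave 9 rises (8 to 11 with 1 array left out, 7 to 13 under the other alternatives) and 7 falls (5 to 7 under both). PTGES3 and CREB1 were not called after quantile normalization, nor was GNAS under either centring. Over all genes, samples with the same replicate number did not deviate together (r of −0.20 to 0.04, and 0 of 4 matched best with its own number). No pairing by number was thus detected, but with 4 arrays per condition one could be missed. PTGIS had an SE of 0.050 with the replicate number as a block and 0.089 without it. With the replicate number as a block, 1505 genes were called higher and 1517 lower, 4 prostaglandin genes were called higher, and MBOAT7, GNAS and CREB1 were not called. Without a background measure, ratios of low signals such as that of PTGS2 are the least certain.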
